A study of Tribolium castaneum with 17 samples.

Results

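TC000921, TC007675, TC008400, TC013427, TC013428, TC014688 and TC005375 are 7 gene models of the red flour beetle *Tribolium castaneum* whose transcripts were most abundant in embryos of 6-11 hr. They were chosen from the 12302 gene models of the deposited table because each had a higher mean in 6-11 hr embryos than in any of the other 5 groups. The 6-11 hr levels therefore chose the genes, and they are given as a description with no test. The same rule holds for 2660 of the 12302 gene models, so the 7 are a small share of all genes with this peak. Just inside and outside the rule, TC013984 averaged 160.9 CPM (the normalized expression of the study, read numbers scaled to library depth) in 6-11 hr embryos at 1.00 times its next group, and TC009183 averaged 259.1 CPM at 0.9999 times its next group.

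Poly(A) RNA of wild-type beetles of strain GA2 was sequenced from 6 groups, with 3 libraries each except testis, which had 2. Embryos of 6-11 hr (libraries S4 to S6) and embryos of 0-5 hr (S1 to S3) were pools of 80 to 100 embryos, and testis (S16 and S17), ovary (S13 to S15), male carcass (S10 to S12) and female carcass (S7 to S9) came from pools of 30 adults at 4 days after eclosion. A carcass is the body left once the gonad is taken out, and it still holds many tissues. The eggs came from a separate set of older adults, not from the dissected beetles. In such bulk samples a lower level from fewer expressing cells and one from less RNA per cell cannot be told apart.

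An insect egg first lives on transcripts that the mother placed in it during oogenesis, and its own genome is switched on later, at the maternal-to-zygotic transition, while part of the maternal RNA is degraded. The study called its 0-5 hr embryos pre-zygotic and set the 6-11 hr embryos against them to find early zygotic transcripts. Of the 7 genes, 1 has a known identity here. TC005375 is a hexamerin, HEX4 in RefSeq, which the study names a homolog of the fly Larval serum protein 2. Hexamerins are large insect blood proteins that the fat body of larvae makes and stores as an amino acid reserve. The other 6 gene models carry no name in the sources used here, so they are given by identifier only.

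The libraries held 20221563 to 27244356 reads in gene models for 6-11 hr embryos, 29041836 to 31126463 for 0-5 hr embryos and 18664366 to 34847471 for the adult groups, so that 1 read was worth 0.0217 to 0.0595 CPM. Library S6 stood apart. Of the 17 libraries, 16 lay nearest to a library of their own group, and S6, labelled 6-11 hr, lay nearest to the 0-5 hr library S3. The distance over log2(CPM + 1) of the tested genes was 51.8 between S6 and S3, 59.5 and 62.2 between S6 and the other 6-11 hr libraries, and 17.9 between S4 and S5. All 3 testis markers fixed for the check peaked in testis, both carcass markers in carcass and caudal in embryos, whereas 0 of 3 ovary markers peaked in ovary (1 of 3 among the adult groups alone). The study named these markers from the same libraries, so the peaks are no independent check of the labels. Testis markers summed to 157 to 421 CPM in male carcass libraries, against 3.18 to 7.29 CPM in female carcass libraries, and their part in the male carcass values was not tested.

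All 7 genes passed the filter of 5 CPM in 3 libraries, and 0 of them passed it without the 6-11 hr libraries. That holds for 68 of the tested genes, so their passing is no support for the peak. In 6-11 hr embryos each value rested on 120 to 2450 reads. Outside them part of the values were near the limit of detection, with 3 reads or fewer behind 6 of 21 values in 0-5 hr embryos, 7 of 14 in testis, 3 of 21 in ovary, 12 of 21 in male carcass and 8 of 21 in female carcass. Levels under 0.2 CPM are therefore a handful of reads.

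The genes fell into 4 patterns by where they were found besides 6-11 hr embryos. TC000921, TC007675 and TC014688 stood at or above 0.870 CPM in every ovary library and at or under 0.435 CPM in every carcass library. TC013427 and TC013428 had 99 to 161 reads in 2 of the 3 libraries of 0-5 hr embryos, at most 1 read in the other, and 3 to 16 reads in each ovary library. TC008400 was low in every other group, and TC005375 was at 1 read or none in each 0-5 hr library but present in all adult libraries. The patterns are not exclusive, since TC000921 also had 2.93 and 3.47 CPM in 2 of the 3 libraries of 0-5 hr embryos and 0.354 CPM in the other. This grouping was made after the values were seen and carries no test.

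**Figure D1:**
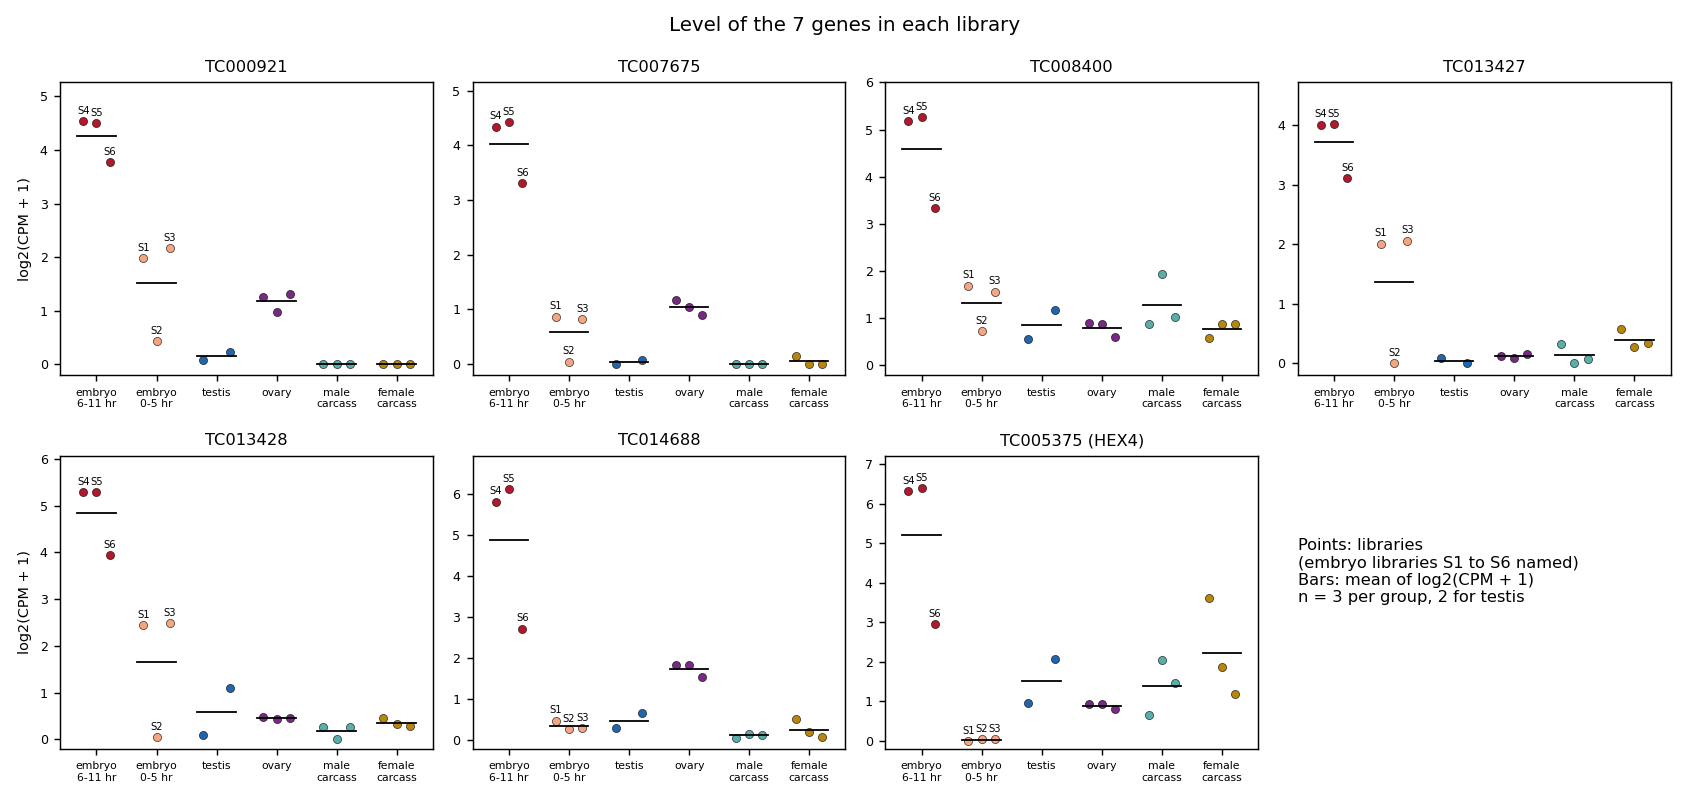
Level of each of the 7 genes as log2(CPM + 1) on the vertical axis in each library (points) by group, with the mean as a bar (n = 3 libraries, 2 for testis). The 6-11 hr libraries S4 and S5 lay above every other library for all 7 genes, while S6 lay lower and, for TC005375, under 1 female carcass library.

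TC000921 had 22.2, 21.6 and 12.7 CPM in the 6-11 hr libraries S4, S5 and S6. It had 2.93, 0.354 and 3.47 CPM in the 0-5 hr libraries S1, S2 and S3, 0.0589 and 0.172 CPM in testis, and 1.39, 0.976 and 1.48 CPM in ovary. In all 6 carcass libraries it had 0 reads. The 6-11 hr mean of 18.8 ± 5.34 CPM (SD, n = 3) was 8.36 times that of 0-5 hr embryos. Against a floor of 3 reads per library it was at least 106-fold higher than in male carcass and at least 116-fold higher than in female carcass. The next groups in order, 0-5 hr embryos and ovary, overlapped through library S2.

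TC007675 had 19.3, 20.6 and 8.88 CPM in the 6-11 hr libraries. Its 0-5 hr libraries had 0.825, 0.0295 and 0.769 CPM and its ovary libraries 1.25, 1.06 and 0.870 CPM. Testis held 0 and 1 read, male carcass 0 reads, and female carcass 2 reads in S7 with 0 in the other libraries. Ovary thus stood above 0-5 hr embryos in every library, and the 6-11 hr mean of 16.3 ± 6.43 CPM was 15.3 times the ovary mean.

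TC014688 had 55.0, 68.0 and 5.58 CPM in the 6-11 hr libraries. It had 0.397, 0.207 and 0.228 CPM in 0-5 hr embryos, 0.235 and 0.574 CPM in testis, and 2.56, 2.58 and 1.93 CPM in ovary. No carcass library exceeded 0.435 CPM. The 6-11 hr mean was 18.2 times that of ovary, the next group in order, and below ovary testis, 0-5 hr embryos, female carcass and male carcass followed, each overlapping the next. The 6-11 hr SD of 32.9 CPM around a mean of 42.9 CPM reflected the gap between S6 and the other libraries.

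TC013427 had 15.1, 15.2 and 7.62 CPM in the 6-11 hr libraries, against 3.03, 0 and 3.16 CPM in the 0-5 hr libraries. In ovary it had 3 reads in each library, or 0.0651 to 0.114 CPM, and it stayed at or under 0.489 CPM in every adult library. TC013428 had 38.0, 38.3 and 14.5 CPM in the 6-11 hr libraries, against 4.43, 0.0295 and 4.58 CPM in the 0-5 hr libraries. It had 0.389, 0.347 and 0.378 CPM in ovary, 0.0589 and 1.15 CPM in testis, and at most 0.381 CPM in the carcasses. Both genes were thus found in S1 and S3 and were at 0 and 1 read in S2. The ratio of the 6-11 hr mean to the 0-5 hr mean was 6.13 for TC013427 and 10.04 for TC013428, or 4.09 and 6.71 without S2.

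The identifiers of these genes are consecutive, and they also stand next to each other in the numbering of the deposited table. Their own ratio was not constant. TC013428 was at 2.52, 2.52 and 1.90 times TC013427 in S4, S5 and S6, and at 1.46 and 1.45 times it in S1 and S3. These are ratios of CPM, which contain the lengths of both genes, so only the shift between libraries can be read. The library kit does not mark the strand, and reads from genes that overlap on opposite strands could not be told apart.

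TC008400 had 35.3, 37.5 and 9.06 CPM in the 6-11 hr libraries. It had 2.23, 0.650 and 1.97 CPM in 0-5 hr embryos, 0.471 and 1.26 CPM in testis, 0.862, 0.846 and 0.530 CPM in ovary, 0.827, 2.86 and 1.02 CPM in male carcass, and 0.489, 0.844 and 0.840 CPM in female carcass. The 5 lower groups overlapped each with the next, and none could be ordered beyond its spread. The 6-11 hr mean of 27.3 ± 15.8 CPM was 16.9 times that of 0-5 hr embryos and 17.4 times that of male carcass, or 29.5 times without the male carcass library S11.

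TC005375 had 78.4, 82.6 and 6.79 CPM in the 6-11 hr libraries, against 0 reads in S1 and 1 read each in S2 and S3. It had 0.942 and 3.21 CPM in testis, 0.890, 0.911 and 0.757 CPM in ovary, 0.584, 3.09 and 1.74 CPM in male carcass, and 11.3, 2.63 and 1.26 CPM in female carcass. The 6-11 hr mean of 55.9 ± 42.6 CPM was 11.0 times the mean of female carcass, but the female carcass library S7 exceeded S6. Without S7 the female carcass mean was 1.95 CPM and the ratio 28.7. This is the only one of the 7 genes whose 6-11 hr libraries did not all exceed every other library. The others are among 1280 of the 12302 gene models with that separation.

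Within the 6-11 hr group, S6 was the lowest library for all 7 genes, and for all 7 it lay between the 0-5 hr libraries and S4 and S5. The same held for 2033 of the 12152 tested genes and for 237 of 240 other genes called higher at 6-11 hr than at 0-5 hr. This position of S6 is thus not particular to the 7. As a share of the mean of S4 and S5, S6 held 57.9% for TC000921, 50.3% for TC013427, 44.5% for TC007675, 37.9% for TC013428 and 24.9% for TC008400. It held 9.07% for TC014688 and 8.43% for TC005375. On the log2(CPM + 1) scale S6 was at least 2-fold lower than the mean of S4 and S5 in 5 of 7 genes, where 6.89% of all tested genes were. Among the 240 other genes called higher in 6-11 hr than in 0-5 hr embryos, 172 (71.7%) were, with a median of −1.38 against −1.34 for the 7. The share of genes with a low S6 was thus close to that of the other genes called higher at 6-11 hr.

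Within the 0-5 hr group, S2 was below both S1 and S3 for 6 of 7 genes, where 33.6% of the tested genes were. S2 held 11.1% of the mean of S1 and S3 for TC000921, 3.71% for TC007675, 31.0% for TC008400, 0% for TC013427, 0.655% for TC013428 and 66.2% for TC014688. On the log2(CPM + 1) scale the difference of TC000921 was −1.63, that of TC013427 was −2.03 and that of TC013428 was −2.42, so 3 of 7 genes were at least 2-fold lower in S2. Across all tested genes 60 were, or 0.494%, and among the 240 other genes higher in 6-11 hr embryos 17 were, or 7.08%. TC007675 at 3.71% and TC008400 at 31.0% missed that mark, at −0.80 and −0.91, on a scale where the 1 added to each CPM shrinks changes of low genes. The 0-5 hr levels of TC000921, TC007675, TC013427 and TC013428 thus came mainly from 2 of the 3 libraries. A low S2 is not particular to the 7. Of the similar genes named below, TC005083, TC033499, TC011283 and TC034949 lay at −1.27, −1.36, −1.26 and −1.29. TC033670, TC011658, TC011659 and TC011660 were not lower in S2.

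**Figure D2:**
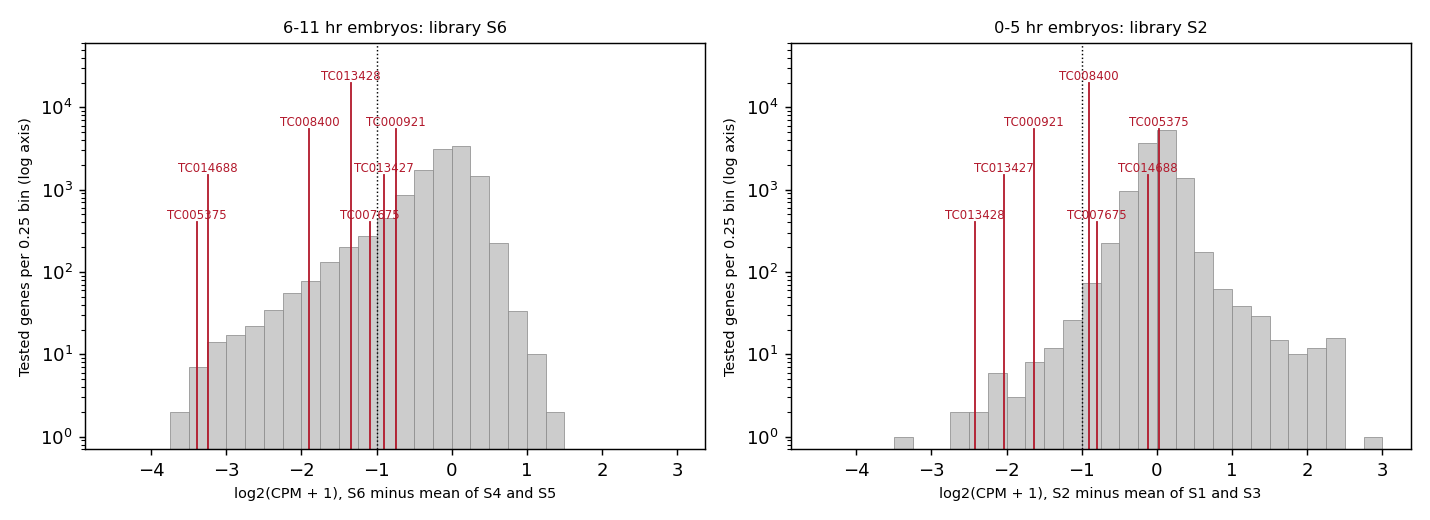
Number of tested genes (log axis) by the difference in log2(CPM + 1) between library S6 and the mean of S4 and S5 (left) and between library S2 and the mean of S1 and S3 (right), with the 7 genes as red lines whose heights carry no value and a dotted line at 2-fold lower. TC005375 and TC014688 lay at −3.39 and −3.24 in the left plot, and TC013428, TC013427 and TC000921 lay beyond −1 in the right plot.

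The 7 genes were tested only between groups other than 6-11 hr embryos, with limma on log2(CPM + 1) in 1 fit of all 17 libraries. A gene was called at a change of 2-fold or more and a Benjamini-Hochberg adjusted p under 0.01 over the 12152 genes. The 1 added to each CPM holds fold changes of such low genes close to 0, so the values below understate the ratio of the levels. Each p rests on the spread between libraries of pooled animals, taken as 1 variance per gene over all 6 groups. The spread of the 6-11 hr libraries, S6 included, thus enters every limma p of the 7 genes, although those libraries are on neither side. A missing call of a gene with a low S6, such as TC014688, is therefore no sign of equal levels. The 7 genes also passed the filter only through the 6-11 hr libraries and were mostly low in the groups compared. Few calls were thus favoured by the choice of genes, and the shares over all tested genes given below are not a like comparison.

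The first question is whether the genes were already above adult levels in 0-5 hr embryos. TC000921 rose to 2.25 ± 1.67 CPM in 0-5 hr embryos, with a log2 fold change of 1.19 ± 0.27 (SE) over the mean of the 4 adult groups (adjusted p = 0.00080, limma). TC013427 averaged 2.06 ± 1.79 CPM in 0-5 hr embryos and was called as well, at 1.18 ± 0.33 (adjusted p = 0.0035, limma). TC013428 lay just over the threshold at 1.26 ± 0.42 (adjusted p = 0.011, limma). The remaining genes were not called, with 0.40 for TC008400, 0.30 for TC007675, −0.30 for TC014688 and −1.47 for TC005375. In all, 2 of 7 genes were called higher and 0 lower, where 20.7% of all tested genes were called higher and 59.6% either way, so that nothing about these genes can be read from so small a count. Both calls were lost without S1 or without S3, when 0 of 7 were called, while 3 were called without S2, 4 without S6 and 3 without S17. The quasi-likelihood test of edgeR on the reads recovered from the CPM called 5 of 7, where it called 61.0% of all genes. It added TC007675 and TC013428 as higher and TC005375 as lower in 0-5 hr embryos, and DESeq2 called the same 5 genes, with 61.9% of all genes.

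Next, the 0-5 hr embryos were compared with ovary, the tissue that supplies the egg. None of the 7 genes was called by limma, where 39.0% of all tested genes were, and 3 of 7 had an unadjusted p under 0.05. The fold change of TC013427 was 1.23 ± 0.41 (adjusted p = 0.014, limma), that of TC013428 was 1.20 ± 0.52 and that of TC014688 was −1.39 ± 0.59. TC014688 had 0.207 to 0.397 CPM in 0-5 hr embryos and 1.93 to 2.58 CPM in ovary with no overlap. Without S2, TC013427 and TC013428 were called higher in 0-5 hr embryos, and without S6, TC014688 was called lower. On recovered reads edgeR called 3 (TC013427 higher, TC014688 and TC005375 lower) and DESeq2 called 4, where they called 43.6% and 47.2% of all genes. TC000921 had a fold change of 0.34 ± 0.34 and TC008400 one of 0.53 ± 0.44.

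Among the adult groups the only call was between ovary and female carcass. TC000921 was higher in ovary than in female carcass, at 1.28 ± 0.27 CPM in ovary against 0 reads in every female carcass library. The log2 fold change on the added scale was 1.18 ± 0.34 (adjusted p = 0.0058, limma), and against a floor of 3 reads per library the level was at least 7.85-fold higher in ovary. TC007675 missed the fold threshold at 0.99 ± 0.27 (adjusted p = 0.0041, limma), and TC014688 missed that for p at 1.48 ± 0.59 (adjusted p = 0.034, limma). TC005375 lay the other way, at −1.33 ± 0.78, and was not called. Thus 1 of 7 genes was called, where 45.1% of all tested genes were called and 19.8% were higher in ovary. The call of TC000921 was lost without S7, S8, S9, S13 or S15, and 0 of 7 were called without S8, S9 or S13, whereas without S7 or S15 TC007675 was called in its place and without S6 TC014688 was called too. On recovered reads edgeR called TC000921, TC007675 and TC014688, 3 of 7 where it called 46.2% of all genes, and DESeq2 called 4 of 7, TC005375 as lower in ovary among them, where it called 47.0%.

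Between testis and ovary none of the 7 genes was called by limma, where 43.2% of tested genes were, and 2 of 7 had an unadjusted p under 0.05. TC000921 had a log2 fold change of −1.03 ± 0.38 (adjusted p = 0.026, limma), TC007675 one of −0.999 ± 0.30 (adjusted p = 0.0085, limma) and just under 2-fold, and TC014688 one of −1.26 ± 0.66. Without S2, TC000921 was called and without S6, TC014688. On recovered reads edgeR called TC007675, with 42.7% of all genes, and DESeq2 called TC000921, TC007675 and TC014688, with 45.4%, each lower in testis. All 3 genes had higher CPM in each ovary library than in either testis library.

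The other comparisons gave no call. Between testis and male carcass 0 of 7 genes were called by limma, edgeR or DESeq2, where these tools called 57.7%, 58.0% and 59.5% of tested genes, and 0 of 7 had an unadjusted p under 0.05 in limma. Between male and female carcass it was 0 of 7 by each tool and 0 at an unadjusted p under 0.05, where the tools called 5.19%, 5.28% and 5.86%. TC000921 and TC007675 had 3 reads or fewer in every library of both comparisons, which gives no fold change. The difference between the sexes in the gonad-carcass change was called for 0 of 7 genes by each tool, where they called 34.1%, 30.8% and 35.1%, with 1 of 7 at an unadjusted p under 0.05. It was −1.03 ± 0.51 for TC000921, −0.95 ± 0.41 for TC007675, −1.12 ± 0.89 for TC014688 and 1.46 ± 1.17 for TC005375. Without S2 TC000921 was called and without S6 TC014688.

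**Figure D3:**
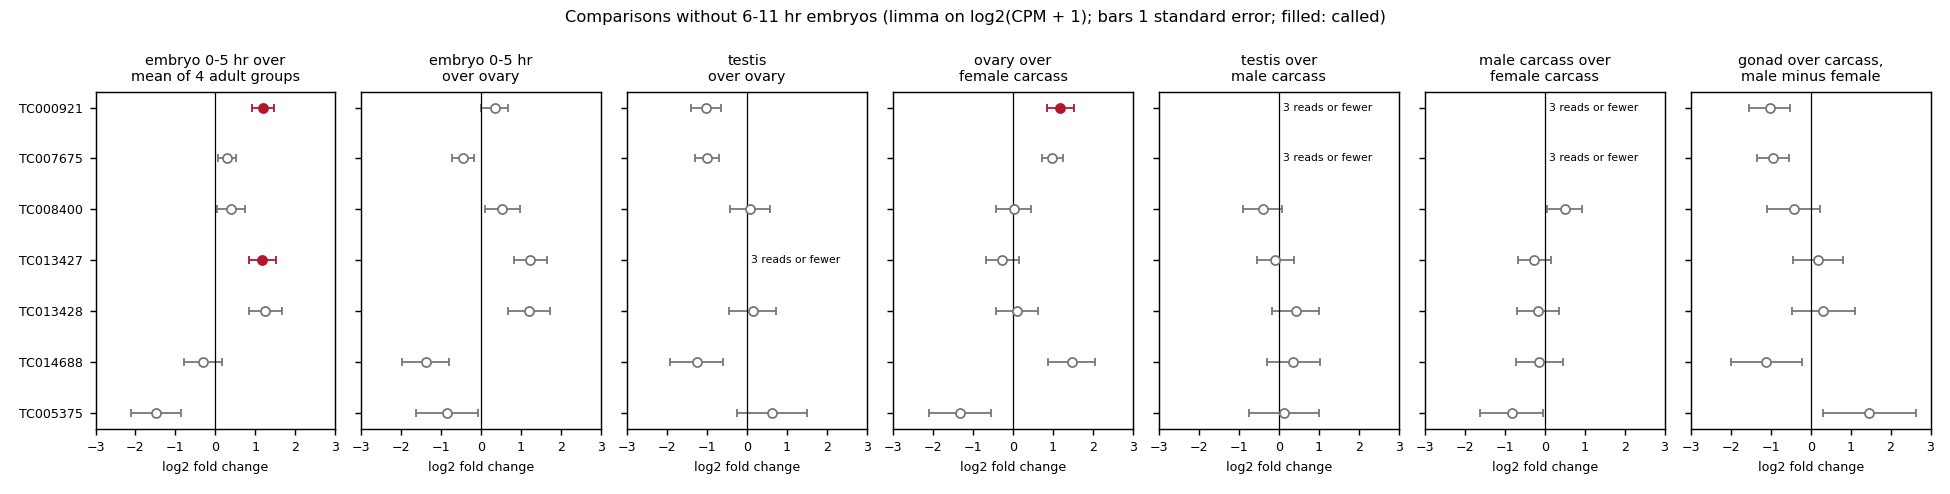
Log2 fold change on the log2(CPM + 1) scale (horizontal axis) of the 7 genes in the 7 comparisons that leave out 6-11 hr embryos, with bars of 1 SE, filled points where called, and no point where all libraries had 3 reads or fewer. The filled points are TC000921 and TC013427 in 0-5 hr embryos over the adult groups and TC000921 in ovary over female carcass.

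TC000921, TC007675 and TC014688 were grouped above for their ovary and carcass levels, and their correlations in the adult libraries restate that grouping. Over the 11 adult libraries Pearson's r of log2(CPM + 1) was 0.97 for TC000921 with TC007675, 0.96 for TC000921 with TC014688 and 0.98 for TC007675 with TC014688. Over all 17 libraries the 21 pairs of the 7 genes ran from 0.64 to 0.99 with a median of 0.90, which the choice of the genes largely sets. There TC000921 stood at 0.97 with TC007675 and 0.88 with TC014688, but also at 0.96 with TC013428 and 0.95 with TC013427. The points of these correlations share libraries and groups, and no test is attached to them.

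TC005375 could be set beside its family. RefSeq lists 6 hexamerin genes, of which 3 could be matched to the deposited table, TC005375 (HEX4), TC006769 (HEX2) and TC005377 (HEX1B). HEX2 and HEX1B were taken after their values were seen. HEX2 had 1.29, 1.21 and 1.67 CPM in 6-11 hr embryos and 1.28, 2.274 and 1.91 CPM in 0-5 hr embryos. In adults it reached 156 and 204 CPM in testis, 32.6 to 55.6 CPM in ovary, 25.1, 694 and 456 CPM in male carcass, and 2236, 44.25 and 316 CPM in female carcass. HEX1B stayed at 0.0675 to 0.174 CPM in 6-11 hr embryos and 0.0917 to 0.177 CPM in 0-5 hr embryos, and had 3.65 to 203 CPM in male carcass and 8.24 to 564 CPM in female carcass. HEX4 was the only one of the 3 whose 6-11 hr libraries all exceeded its 0-5 hr libraries. It was chosen for its 6-11 hr level and the other hexamerins were not, so nothing about the family is read from this.

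In the adults the 3 hexamerin genes had their highest value in the same library, S7 of the female carcass. Pearson's r over the 11 adult libraries was 0.78 for HEX4 with HEX2, 0.78 for HEX4 with HEX1B and 0.98 for HEX2 with HEX1B. The carcass libraries of 1 sex differed widely in these genes, HEX2 by 44.25 to 2236 CPM among the female carcasses, so no sex difference can be read from them. Hexamerin genes are related in sequence, and how reads that fit several of them were counted is not given in the sources used here. The gene model TC005376, whose identifier lies between HEX4 and HEX1B, had 0.733 to 1.28 CPM in 6-11 hr embryos, 0.854 to 1.83 CPM in 0-5 hr embryos and 2273 CPM in S7. In the numbering of the deposited table HEX1B, TC005376, HEX2 and HEX4 follow each other.

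**Figure D4:**
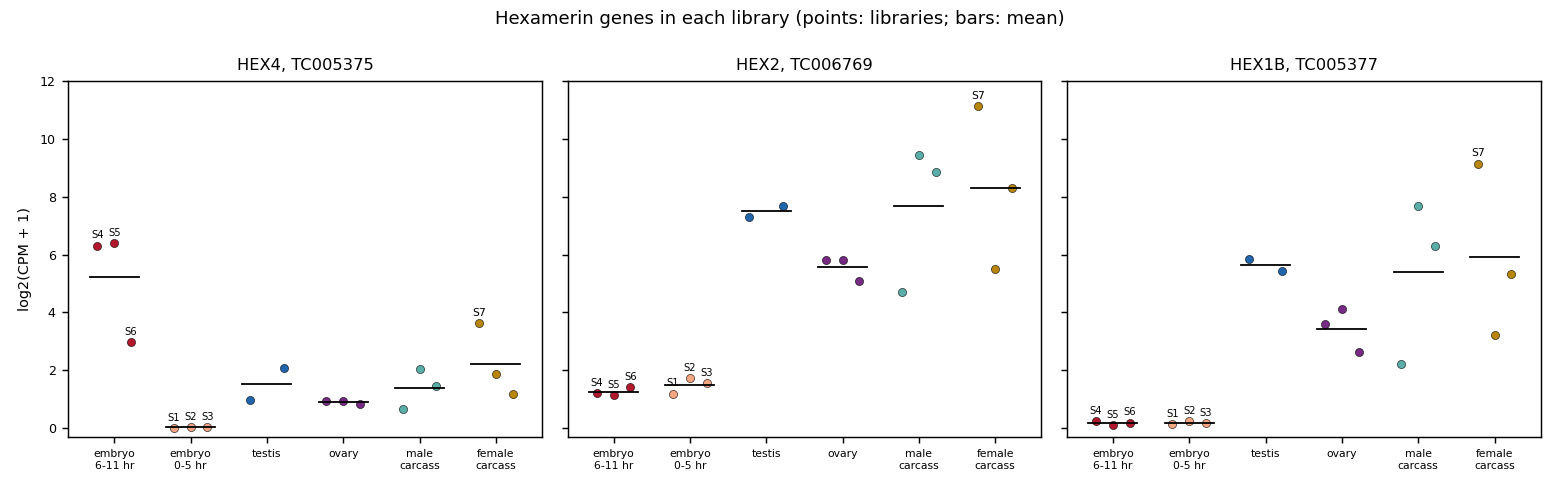
Level as log2(CPM + 1) (vertical axis) of the hexamerin genes HEX4 (TC005375), HEX2 (TC006769) and HEX1B (TC005377) in each library by group, with the mean as a bar (n = 3 libraries, 2 for testis). HEX4 is high in the 6-11 hr libraries S4 and S5 at 78.4 and 82.6 CPM, where HEX2 is at 1.29 and 1.21 CPM, and all 3 are highest among adult libraries in S7.

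The identifiers directly beside the 7 genes were compared to see whether neighbours shared the peak. Of 14 such identifiers 9 are in the table, 2 of them being TC013427 and TC013428 themselves. TC000920 had 3.11, 3.34 and 1.07 CPM in 6-11 hr embryos and 0.342 to 0.520 CPM in 0-5 hr embryos, but 4.53 to 5.42 CPM in ovary. TC007676 had 1.30 to 3.28 CPM in 6-11 hr embryos and 0.712 to 0.827 CPM in 0-5 hr embryos, but 20.999 to 52.2 CPM in the carcasses. TC014687 stayed at or under 0.174 CPM in all embryo libraries and had 8.69 to 16.5 CPM in the carcasses. TC007674 was abundant in both stages, with 204 to 213 CPM in 6-11 hr embryos and 138 to 163 CPM in 0-5 hr embryos. TC013429 and TC014689 peaked in testis. Of the neighbours outside the 7, only TC007674 thus had its highest mean in 6-11 hr embryos. That holds for 2660 of all 12302 gene models, so nothing about neighbours is read from so small a count.

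The genes most like the mean profile of the 7 over the 17 libraries were TC011283 (Pearson's r = 0.97), TC011658 (0.96), TC033670 (0.96), TC012727 (0.94) and TC011660 (0.92). TC011283 had 14.03, 14.9 and 10.4 CPM in 6-11 hr embryos and 1.68, 0.0886 and 1.54 CPM in 0-5 hr embryos, with S2 low as in TC013427. TC011658 had 74.7, 76.9 and 7.67 CPM in 6-11 hr embryos and 1.31 to 1.68 CPM in 0-5 hr embryos, with S6 low as in TC014688. TC033670 had 16.1, 19.0 and 9.99 CPM in 6-11 hr embryos and at most 0.266 CPM in 0-5 hr embryos. TC012727 followed the same profile at a much smaller ratio, with 103 to 118 CPM in 6-11 hr embryos and 68.1 to 76.2 CPM in 0-5 hr embryos. Gene by gene, the nearest was TC005083 for TC000921 (0.96), TC033670 for TC007675 (0.97), TC011660 for TC014688 (0.97) and TC011283 for TC008400, TC013427 and TC013428 (0.96, 0.93 and 0.96). For TC005375 the nearest was TC011658, at 0.82.

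In the same fit 15 genes were called higher at 6-11 hr than in each other group, 0.123% of the 12152 tested. The 7 are among them by the same values that chose them, so nothing is read from that. The other 8 were TC005083, TC011283, TC011658, TC011659, TC011660, TC033499, TC033670 and TC034949, and they were picked after their values were seen. By the ratio of the 6-11 hr mean to the next highest group, TC011658 (27.0) and TC033670 (22.3) stood above all 7. TC014688 followed at 18.2, TC008400 at 16.9, TC007675 at 15.3, TC011283 at 11.9, TC005375 at 11.0, TC013428 at 10.04, TC011660 at 9.36, TC000921 at 8.36 and TC013427 at 6.13. Low values in S2 were seen in TC005083, TC033499, TC011283 and TC034949, which held 8.21%, 24.7%, 5.51% and 0% of the mean of S1 and S3. TC011658 and TC011660 held 121% and 105%.

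A further 5 genes that the study names as early zygotic were compared between the embryo stages. The study chose them on these samples, so their direction is not independent evidence. It reports all 5 as significantly up-regulated in 6-11 hr embryos. TC015380 was called higher, with 7.12, 8.16 and 1.39 CPM in 6-11 hr embryos and 0.183, 0.266 and 0.342 CPM in 0-5 hr embryos, a log2 fold change of 2.16 ± 0.42 (adjusted p = 0.0024, limma). TC030997 had 7.71, 6.78 and 1.53 CPM in 6-11 hr embryos and 1.22, 1.42 and 1.28 CPM in 0-5 hr embryos, at 1.27 ± 0.34 (adjusted p = 0.016, limma), and was not called. TC008514, TC009052 and TC033031 had fold changes of 0.21, 0.00 and 0.30 and were not called. In all 1 of 5 was called higher, where 2.03% of all tested genes were. The count was 2 without S6 and 0 without S1, S2, S4 or S5. As in the 7 genes, S6 held the lowest 6-11 hr value of all 5, although for TC009052 by 2.789 against 2.791 CPM. For TC033031 that value was 0.0465 CPM, or 1 read. On the log2(CPM + 1) scale S6 lay below the mean of S4 and S5 in 57.8% of all tested genes. All 5 genes were more abundant in testis and both carcasses than in 6-11 hr embryos, although the study places them in a cluster that it describes as not expressed outside embryos. The 7 genes were chosen for a peak at 6-11 hr, so no contrast with them is read from this.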

How the data were processed

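The deposited signal values are the authors' CPM, read numbers scaled to library depth with TMM factors, for 12302 gene models in 17 libraries. Per the study's methods, unpaired reads were aligned with HISAT2 2.0.5 to the genome of build Tcas5.2, counted per gene model with BEDTools and scaled with edgeR, with a stated filter of 5 CPM in 3 or more samples that 12152 of the deposited gene models meet. Dividing each CPM by the smallest value above 0 of its library gave whole reads, within 0.01 read, for 100% of the 209134 values. The count test of edgeR on these reads called 7409 genes between 0-5 hr embryos and the mean of the 4 adult groups, against 7239 for limma.

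The genes meeting that filter were tested in 1 fit of all 17 libraries by limma 3.58.1 in R 4.3.3, with trended and robust moderation of the variance of log2(CPM + 1). A call needed a 2-fold change and an adjusted p (Benjamini-Hochberg) under 0.01, as in the study. The alternatives were edgeR 4.0.16 (quasi-likelihood) and DESeq2 1.42.0 on recovered reads, other pseudocounts, filters and scalings, only the groups compared, and leaving out each library. Floors of 3 reads and read numbers cover counting error only.

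The genes and lists were chosen with earlier results of these data known. Named were the 7 genes, the 5 non-members with the highest Pearson's r to their mean standardized profile, the 1 nearest to each, the neighbouring identifiers, 5 zygotic genes and 9 tissue markers of the study, and others are marked as picked after their values were seen. RefSeq names of assembly icTriCast1.1 were matched through older identifiers listed as synonyms, which matched 1 of the 7 genes. The genome of the authors' build was not used here, so no positions or sequences are given.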

Additional observations from a re-analysis of the deposited data

How the results depend on the processing

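Library totals as the only scaling moved the median gene to −0.63 between testis and ovary, 0.74 between ovary and female carcass, −0.26 between 0-5 hr embryos and ovary and −0.68 for the sex difference (log2), so that calls there are relative to that shift. No paired analysis was possible because the replicate numbers run through the series and no 2 groups share one. In 0-5 hr embryos against the adult groups, where 2 of 7 genes were called, edgeR and DESeq2 on recovered reads called 5 each and 5 added to each CPM left 0, with 0 to 4 when single libraries were left out. Against ovary, where 0 were called, edgeR called 3, DESeq2 4, 0.1 added to each CPM 2 and the fit of only the groups compared 1, with 0 to 2 over the single libraries. Between testis and ovary, where 0 were called, the counts were 1 with edgeR, 3 with DESeq2, and 2 each with 0.1 added, with library totals and with only the groups compared, and 0 to 1 over the single libraries. Between ovary and female carcass, where 1 was called, the counts were 3 with edgeR, 4 with DESeq2, 3 with 0.1 added, 0 with 5 added, 2 with library totals and 2 with only the groups compared, and 0 to 2 over the single libraries. The sex difference gave 2 with only the groups compared and 0 to 1 over the single libraries. Of the 5 zygotic genes edgeR and DESeq2 called 2 each, and 5 added to each CPM and only the groups compared left 0, with 0 to 2 over the single libraries. Testis against male carcass and male against female carcass stayed at 0 throughout, and the count of genes with their highest mean in 6-11 hr embryos stayed at 7 under each alternative run for it. That count and the direction of the 6-11 hr folds rest on the values that chose the genes, so neither is support for the peak. Of the 6-11 hr folds over the other groups on the log2 scale, 27 moved beyond the spread between libraries with 5 added to each CPM, 23 with 0.1 added and 3 without S2 (TC000921, TC013427 and TC013428 over 0-5 hr embryos, at 1.68 to 2.38), and none changed direction. The cause of these moves was not tested.

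Of the 44 tested fold changes of single genes, those that turned direction were uncalled and close to 0. Between testis and ovary TC008400 was at −0.203 with library totals and −0.24 to 0.38 over the single libraries, and TC013428 was at −0.0822 with 0.1 added, −0.0206 with library totals and −0.37 to 0.65 over the single libraries. Between ovary and female carcass TC008400 was at −0.0479 with DESeq2, −0.022 with RLE factors and −0.083 to 0.11 over the single libraries. Between testis and male carcass the single libraries gave −0.15 to 0.0053 for TC013427, −0.0926 to 0.93 for TC013428 and −0.43 to 0.69 for TC005375, and the sex difference of TC013428 ran from −0.195 to 0.83. Depth limits every value under 3 reads.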
